A study of Mus musculus with 12 samples.

Results

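The genes described here encode subunits of the mitochondrial ATP synthase and its inhibitory factor. They were chosen by name as a panel of 9 genes, Atp5a1, Atp5b, Atp5c1, Atp5d, Atp5e, Atp5o, Atp5g1, Atp5k and Atpif1, and were found on the array through probe sets with a single gene symbol. All 9 were present, with 19 of the 45037 probe sets analysed, out of 18193 genes in all. The study measured total RNA of liver and quadriceps muscle with Affymetrix Murine 430 2.0 arrays, in which each gene is read by 1 or more probe sets. The 12 arrays formed 4 groups of 3. These were liver of C57BL/6 mice with a hypomorphic PGC1beta mutation, liver of control C57BL/6 mice, quadriceps muscle of the PGC1beta mutants, and quadriceps muscle of the controls. No age, sex or construct of the mutation is stated in the labels. Nor is it stated that each sample is a mouse of its own, so a p-value covers the spread among the 3 samples of a group, and that spread may be technical.

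The ATP synthase uses the proton gradient built up by the respiratory chain to make ATP from ADP and phosphate. Its F1 head, which carries the catalytic sites, is joined by a rotating central stalk and a fixed peripheral stalk to the Fo part in the inner membrane, where a ring of c subunits turns as protons pass. IF1 is a small protein that binds the F1 head and blocks the enzyme from running backwards and breaking down ATP. PGC-1beta is a transcriptional coactivator known for its part in the expression of mitochondrial and lipid genes.

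RefSeq promoter sequence of the GRCm38.p6 mouse assembly was matched for 8 of the 9 genes, in 10 windows of 250 bases that end just before a transcript start. The windows of Atp5e, Atpif1 and Atp5k are shown because a probe set of each passed the test in liver. For Atp5k it was not the probe set that stands for the gene, which did not pass. Capitals mark matches to motifs linked to PGC-1 partners, and the sequences run 5′ to 3′ on the strand of the gene, which is the minus strand for all 3. They lie at chr2:174464102-174464351 for Atp5e, chr4:132535415-132535664 for Atpif1 and chr5:108434400-108434649 for Atp5k.
Atp5e: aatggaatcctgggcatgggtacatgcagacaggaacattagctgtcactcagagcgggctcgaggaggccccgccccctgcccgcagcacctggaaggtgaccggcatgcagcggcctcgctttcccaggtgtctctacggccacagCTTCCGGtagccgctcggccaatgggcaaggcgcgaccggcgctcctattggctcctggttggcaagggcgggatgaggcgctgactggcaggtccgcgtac
Atpif1: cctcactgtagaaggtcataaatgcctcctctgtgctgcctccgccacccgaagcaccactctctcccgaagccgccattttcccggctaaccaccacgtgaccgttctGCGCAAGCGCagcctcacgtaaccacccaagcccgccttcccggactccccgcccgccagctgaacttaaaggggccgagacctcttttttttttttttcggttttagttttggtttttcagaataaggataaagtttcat
Atp5k: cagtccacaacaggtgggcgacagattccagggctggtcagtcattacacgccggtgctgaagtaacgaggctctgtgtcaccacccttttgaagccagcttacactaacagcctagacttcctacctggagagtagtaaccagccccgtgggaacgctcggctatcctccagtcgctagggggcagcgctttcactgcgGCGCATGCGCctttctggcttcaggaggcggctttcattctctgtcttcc
The motif searched for the estrogen-related receptor was TNAAGGTCA, that for nuclear respiratory factor 1 (NRF-1) was GCGCA, any base, then GCGC, and that for GABP was CCGGAAG, each on both strands. No motif of the estrogen-related receptor was found in the 10 windows, against 1.14% of the 32851 mouse windows of the same length. The NRF-1 motif was found in 3 of the 10 windows, 1 each for Atp5c1, Atp5k and Atpif1, and stood in 3.74% of all windows. Another window of Atp5c1 did not hold it. In the Atp5k window the same 10 letters match on both strands. The GABP motif was found only for Atp5e, in 1 of the 10 windows, and stood in 6.91% of all windows. There it lies on the opposite strand as CTTCCGG. The windows of Atp5b, Atp5d, Atp5g1 and Atp5o, not shown, held none of these motifs. A match is a description of the letters and not a site of binding.

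Of the 9 genes, Atp5c1 and Atp5e lie on chromosome 2, Atpif1 on chromosome 4, Atp5k on chromosome 5, Atp5b and Atp5d on chromosome 10, Atp5g1 on chromosome 11, Atp5o on chromosome 16 and Atp5a1 on chromosome 18 of the GRCm38.p6 mouse assembly.

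Arrays of a tissue correlated with r of 0.943 to 0.960 in liver and 0.961 to 0.971 in muscle. Defining markers fitted the labelled tissues: summed intensities of 6 hepatocyte genes were 61493 to 67036 over the liver arrays and 71.7 to 135.6 over the muscle arrays, while 6 muscle fibre genes summed to 57.9 to 124.8 in liver and 57686 to 60975 in muscle. The probe set of Ppargc1b, the gene of PGC-1beta, read 202 to 491 in mutant livers and 282 to 544 in control livers, and 271 to 423 in mutant muscles and 284 to 332 in control muscles, with overlap in both tissues. The labels do not place that probe set inside or outside the altered part of the gene, so it does not check the genotype. The RNA of the liver arrays differed in quality. The mean log2 ratio between the 3′ and the 5′ control probe sets, which is larger for more degraded RNA, was 1.90, 0.90 and 1.87 in mutant livers 1, 2 and 3, against 0.74, 0.97 and 0.50 in control livers. In muscle it was 0.33 to 0.56 in mutants and 0.40 to 0.52 in controls.

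In liver, 2 of the 9 genes rose in the mutants and none fell past the test. These were Atp5e, the epsilon subunit of the central stalk, and Atpif1, which encodes IF1, which were 1.90-fold and 1.91-fold higher. The genes of the catalytic head, Atp5a1 and Atp5b, lay the other way without passing. Over all 13327 genes tested in liver 3.35% passed, 2.33% higher and 1.03% lower. At an unadjusted p under 0.05, 4 of the 9 were higher and 2 lower, against 11% and 8.64% of all genes. The median log2 difference between mutant and control was 0.09 over the 9 genes, 5 of them with a higher mean, and 0.01 over all genes. It depended on the scaling: with the values as deposited it was 0.37 over the 9 genes and 0.02 over all, with median centring 0.37 and 0.01, and 7 of the 9 means were higher under each. Values below are normalised intensities, effects are log2 differences of mutant minus control with their standard error (SE), and a gene passes where limma's p-value, adjusted over all genes tested, is under 0.05. In whole tissue, fewer cells of a type and less RNA per cell cannot be told apart.

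Atp5e read 3667, 3305 and 3501 in mutant livers 1, 2 and 3, and 1919, 1999 and 1589 in control livers 1, 2 and 3. Every mutant liver lay above every control liver, with means of 3491 ± 182 in mutants and 1836 ± 217 in controls (SD, n = 3 each). The log2 difference was 0.93 (SE 0.12), or 1.90-fold, with an adjusted p of 0.0181 by limma. Atpif1 read 445, 349 and 346 in mutant livers and 157, 202 and 216 in control livers. The groups again did not overlap, with means of 380 ± 56.4 in mutants and 192 ± 31.0 in controls (SD, n = 3 each). Its log2 difference was 0.94 (SE 0.18), or 1.91-fold, with an adjusted p of 0.0259 by limma.

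RNA quality moved with the groups, and the calls, more than the sizes of the differences, depended on single arrays. With 1 array left out the log2 difference ran from 0.84 to 1.00 for Atp5e and from 0.82 to 1.03 for Atpif1. Without mutant liver 1 the adjusted p was 0.117 for Atp5e and 0.138 for Atpif1 (limma), and without control liver 2 it was 0.0505 and 0.0695. The call on Atpif1 was also lost without mutant liver 3 (adjusted p = 0.0594), control liver 1 (0.0892) or control liver 3 (0.0609), and with the mean of its probe sets, which gave 0.51 (adjusted p = 0.168). When the 3′ to 5′ ratio entered the fit as a covariate the log2 differences were 0.76 for Atp5e and 0.84 for Atpif1, with adjusted p of 0.339 and 0.488. Without mutant livers 1 and 3, whose ratios were highest, they were 0.82 each, with adjusted p of 0.340 and 0.423. That fit keeps 1 mutant liver, which is assumed to vary as the control livers do. Without mutant liver 1, without control liver 2, or without mutant livers 1 and 3 together, 0 genes passed in liver over the whole array by limma (1759, 2284 and 1091 at an unadjusted p under 0.05), so the calls on the other genes named below are lost there too. Mutant liver 2, whose ratio lay within the range of the control livers, read 3305 for Atp5e and 349 for Atpif1, above every control liver. This is 1 array, and the part of RNA quality in these differences was not tested separately from that of the genotype.

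The catalytic head read lower in mutant livers without passing the test. Atp5a1, which encodes the alpha subunit, read 4368, 5644 and 6713 in mutant livers and 7435, 8684 and 8565 in control livers. Its log2 difference was -0.58 (SE 0.14, adjusted p = 0.0554 by limma), and over the 19 alternatives it ran from -0.73 to -0.26 with adjusted p from 0.0298 to 0.638. It passed with an offset of 64, a filter at the 60th percentile and a fit of all 12 arrays, and the value nearest to 0 came from the mean of its probe sets (adjusted p = 0.376). Atp5b, the beta subunit with the catalytic sites, read 4324, 5218 and 5617 in mutant livers and 5760, 6925 and 6740 in control livers. Its log2 difference was -0.36 (SE 0.12, adjusted p = 0.124). For both genes all mutant livers lay below all control livers, as did 11% of all genes tested, while 13% lay apart the other way. That separation depended on the scaling: with the values as deposited or centred on the median, none of the 9 genes had all mutant livers below all controls. Atp5a1 differed by -0.35 and Atp5b by -0.10 with the values as deposited.

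The other genes of the stalks and the membrane part overlapped between mutant and control livers. Atp5c1, the gamma subunit that forms the shaft of the central stalk, read 4637, 4336 and 5286 in mutant livers and 3543, 5132 and 4801 in control livers, a log2 difference of 0.09 (SE 0.14, 95% interval -0.22 to 0.41). Atp5d, the delta subunit beside it, read 3480, 3279 and 4668 in mutants and 3435, 4955 and 4780 in controls, a difference of -0.20 (SE 0.17). Atp5o encodes the oligomycin sensitivity conferring protein at the top of the peripheral stalk. It read 3192, 2911 and 3904 in mutants and 1998, 3088 and 2626 in controls, a difference of 0.39 (SE 0.17, adjusted p = 0.233 by limma). Atp5g1, 1 of the genes for the c subunit of the ring, read 3039, 3164 and 3152 in mutants and 2630, 3595 and 3692 in controls, a difference of -0.07 (SE 0.13). Atp5k, the e subunit of the membrane part, read 5059, 4185 and 5831 in mutants and 2626, 4364 and 3882 in controls, a difference of 0.49 (SE 0.18, adjusted p = 0.174). Over the 19 alternatives Atp5k ran from 0.18 with the RNA quality ratio in the fit to 0.75 with the values as deposited, where alone it passed (adjusted p = 0.0455). Atp5o ran from 0.13 with that ratio in the fit to 0.76 with the mean of its probe sets, and did not pass in any of them. In each of these 5 genes control liver 1 was the lowest of its group, as it was for 8 of the 9 genes over the panel. Without it the median of the 9 log2 differences was -0.07, with 0.27 for Atp5k and 0.22 for Atp5o.

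**Figure D1:**
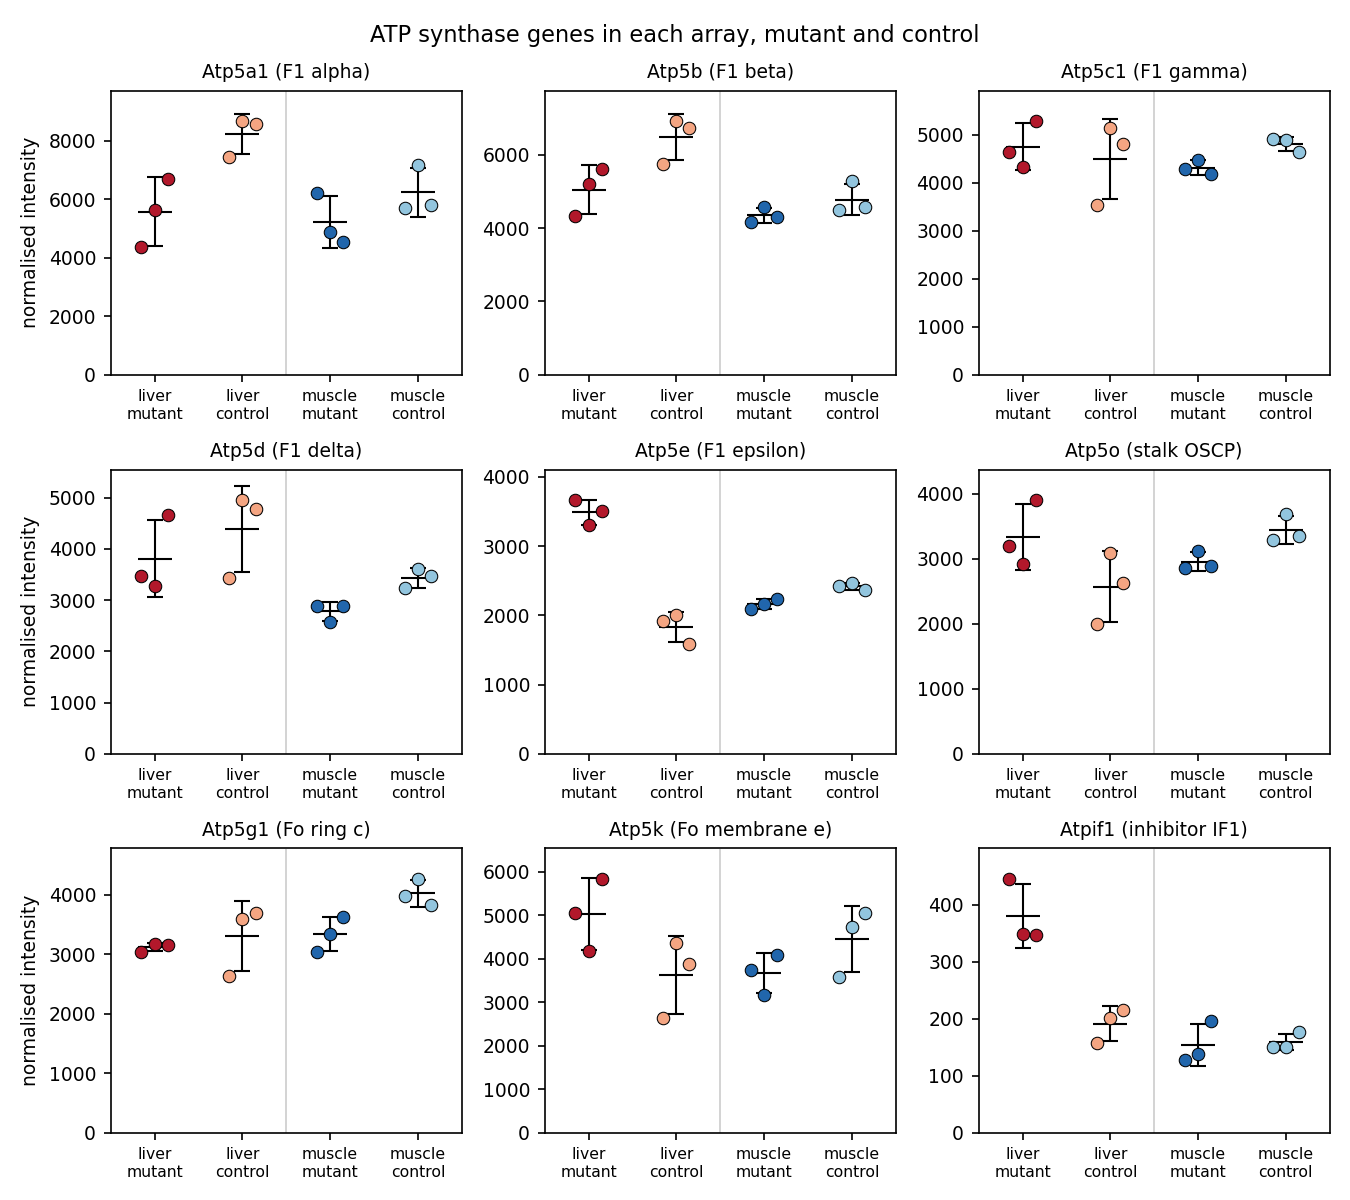
Normalised intensity of the 9 ATP synthase genes in each array, with mutant left of control in liver and then in muscle; points are arrays, and bars are the mean ± SD of 3 arrays. Each panel has its own linear axis from 0. The tissues were normalised separately, so heights in liver and in muscle are not on a common scale. Atp5e and Atpif1 show all mutant livers above all control livers, while in muscle the mutant means lie below the control means.

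In quadriceps muscle the mutant mean was lower for all 9 genes, and none passed the test. The log2 differences ran from -0.30 to -0.06 with a median of -0.22, against a median of 0.00 over the 13131 genes tested. Over all genes 50.1% had a lower mutant mean, and 0.0152% passed, which was 2 genes, both higher. At an unadjusted p under 0.05, 4 of the 9 genes were lower (Atp5c1, Atp5d, Atp5g1 and Atp5o), as were 2.53% of all genes. That count of 4 was 1 with no variance trend, 1 with all 12 arrays in 1 fit and 7 with the 3′ to 5′ ratio in the fit. In 5 of the 9 every mutant muscle lay below every control muscle, which held for 5.22% of all genes, while 4.31% lay apart the other way. With the mean of all probe sets 3 of the 9 lay apart below and 1 above, against 5.41% and 4.49% of all genes. As the genes are subunits of the same complex read on the same arrays, they are not replicates, and each shares any shift of an array.

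Among the 5 muscle genes without overlap, Atp5d read 2886, 2567 and 2893 in mutants and 3230, 3604 and 3462 in controls. Its log2 difference was -0.30 (SE 0.08), the furthest below 0 of the 9. Atp5g1 read 3044, 3345 and 3626 in mutant muscles and 3972, 4263 and 3822 in controls, a difference of -0.27 (SE 0.08). A dim probe set of Atp5g1, 1444874_at, overlapped in muscle, with a difference of 0.04 (SE 0.23). Atp5o read 2852, 3120 and 2886 in mutants and 3289, 3681 and 3345 in controls, a difference of -0.22 (SE 0.08). Atp5c1 read 4279, 4479 and 4176 in mutants and 4902, 4887 and 4630 in controls, a difference of -0.16 (SE 0.07). Atp5e, higher in mutant livers, lay the other way here, with 2088, 2170 and 2230 in mutant muscles and 2418, 2470 and 2368 in controls, a difference of -0.16 (SE 0.07). The adjusted p was 0.994 for each of these 5 genes (limma).

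The other 4 genes overlapped between mutant and control muscles. Atp5a1 read 6226, 4869 and 4552 in mutants and 5710, 7189 and 5815 in controls, with mutant muscle 1 above 2 of the controls. Its log2 difference was -0.26 (SE 0.12). Atp5b read 4176, 4583 and 4294 in mutants and 4491, 5279 and 4570 in controls, a difference of -0.13 (SE 0.08). Atp5k read 3733, 3171 and 4084 in mutants and 3587, 4725 and 5042 in controls, a difference of -0.27 (SE 0.13). Atpif1 read 128, 139 and 195 in mutants and 151, 150 and 176 in controls, a difference of -0.06 (SE 0.17), and mutant muscle 3 was the highest of the 6. All 9 means stayed lower with deposited values and after median centring, and 8 did with the mean of all probe sets. With 1 array left out, 8 or 9 of the 9 were lower, Atpif1 being the exception without mutant muscle 1 or control muscle 3. The sums of muscle fibre markers overlapped, at 57686 to 60975 in mutants and 58481 to 60416 in controls, and so did those of adipocyte markers, at 1923 to 3127 in mutants and 1709 to 2897 in controls.

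**Figure D2:**
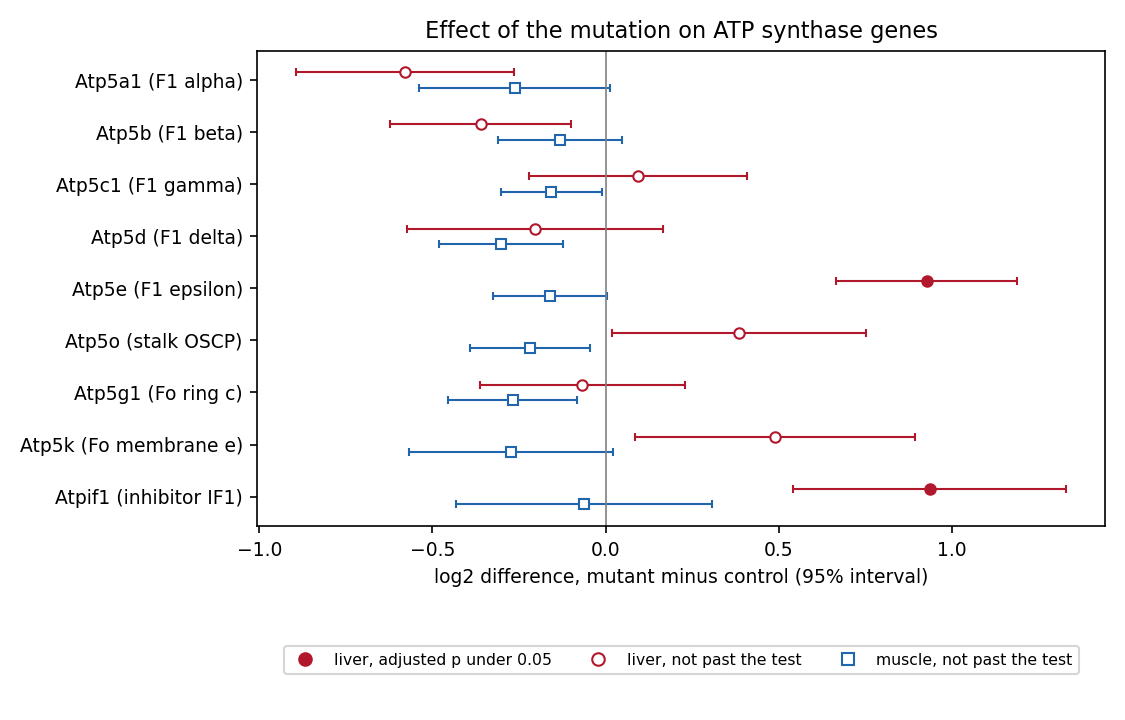
Log2 difference of mutant minus control for each ATP synthase gene with its 95% interval, liver as circles and muscle as squares; filled symbols have an adjusted p under 0.05. In liver Atp5e (0.93) and Atpif1 (0.94) are filled and lie to the right, while in muscle all 9 points lie left of 0 and none is filled.

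The effect of the mutation was compared between the tissues as the liver difference minus the muscle difference, in 1 fit to all 12 arrays. Of the 9 genes only Atp5e passed, against 1.42% of the 11842 genes tested in both tissues, 1.16% higher in liver and 0.262% lower. Its effect was 1.09 higher in liver than in muscle on the log2 scale (SE 0.14, 95% interval 0.79 to 1.38, adjusted p = 0.00412 by limma). Atpif1 followed with 1.00 (SE 0.25, adjusted p = 0.0619), Atp5k with 0.76 (SE 0.25, adjusted p = 0.155) and Atp5o with 0.60 (SE 0.20, adjusted p = 0.150). The genes of the shaft, the delta subunit and the c ring lay nearer to 0, with 0.25 for Atp5c1, 0.10 for Atp5d and 0.20 for Atp5g1. Those of the catalytic head lay below 0, with -0.32 for Atp5a1 and -0.23 for Atp5b, and neither passed. For Atp5e the adjusted p was 0.0812 when the 3′ to 5′ ratio entered the fit and 0.0617 without mutant livers 1 and 3, a fit in which the mutant liver arm is 1 array and the other groups supply the spread.

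Several probe sets read the same gene for 7 of the 9 genes, and they did not always move alike. In liver 17 of the 19 were bright enough to be tested, of which 10 were higher in mutants, 7 were lower and 3 passed as higher, against 1.45% of the 27022 probe sets tested. Adjusted over all probe sets these 3 were the probe sets of Atp5e (1416567_s_at, adjusted p = 0.0222) and Atpif1 (1448770_a_at, 0.0380), and 1 of the 3 for Atp5k (1434053_x_at, 0.0384). That Atp5k probe set read 2961, 2671 and 3484 in mutant livers and 1483, 1996 and 1938 in control livers, without overlap. Its difference between the tissues was 1.07 (SE 0.19, adjusted p = 0.0235 by limma), where 0.662% of the 23095 probe sets tested in both tissues passed as higher in liver. The 3rd probe set of Atp5k, 1422525_at, read 5257, 4777 and 6192 in mutant livers and 2222, 4185 and 4258 in control livers, also without overlap, and did not pass (adjusted p = 0.155).

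For Atp5o a dimmer probe set, 1437164_x_at, read 1159, 815 and 1403 in mutant livers and 314, 515 and 740 in control livers. Its log2 difference of 1.13 (SE 0.29, adjusted p = 0.0747) was larger than the 0.39 of the brighter probe set. The probe sets of Atp5d differed little, at -0.20 and -0.28 in liver and -0.30 and -0.27 in muscle. For Atp5a1 the brighter pair gave -0.58 and -0.37 in liver and -0.26 and -0.24 in muscle, and a dim probe set, 1420037_at, gave 0.17 and -0.49. The 2 dimmer probe sets of Atpif1 read at most 64.7 in any array and gave 0.87 and -0.29 in liver. Atp5e is read by a single probe set whose name ends in _s_at, a mark for probes that can match more than 1 transcript, and the _x_at probe sets of Atp5k and Atp5o can pick up related sequences, so signal from near-identical copies cannot be told apart. In muscle 16 of 18 tested probe sets were lower in mutants and none passed, against 0.0074% of all probe sets. The 2 that were higher were dim, 1444874_at of Atp5g1 (0.04) and 1434198_at of Atpif1 (0.12).

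**Figure D3:**
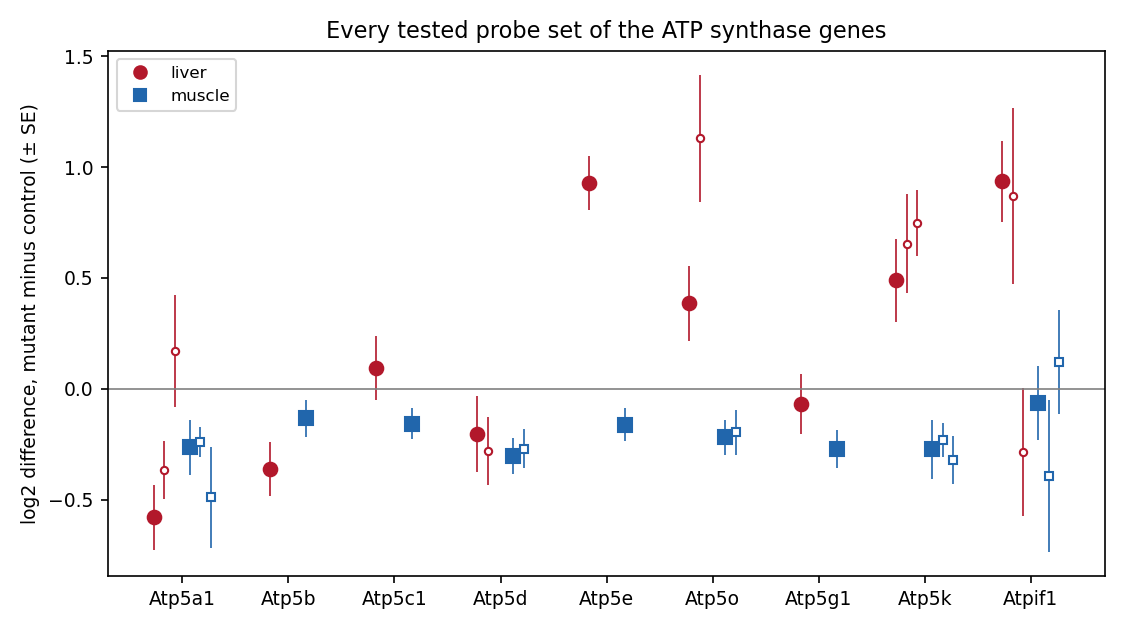
Log2 difference of mutant minus control, with its SE, for every probe set of the 9 genes tested in liver, circles for liver and squares for muscle. A probe set of Atp5g1 tested in muscle only, 1444874_at (0.04), is not drawn. Filled symbols are the probe set that stands for the gene and open symbols its other probe sets. In liver the probe sets of Atp5k and Atp5o lie above 0 throughout, and those of Atp5a1 and Atpif1 differ in sign.

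Other genes of the ATP synthase, 14 of 16 listed subunits and assembly factors, were found and tested in both tissues. In mutant livers 5 of the 14 rose and none fell, against 2.33% and 1.03% of all genes. The mean was higher for 12, against 51.2% of all genes, with a median log2 difference of 0.48. Atp5l, the g subunit of the membrane part, read 3681, 3627 and 3648 in mutant livers and 2336, 2556 and 2671 in control livers, a difference of 0.53 (SE 0.10, adjusted p = 0.0245 by limma). Atp5j2, the f subunit, rose by 0.53 (SE 0.12, adjusted p = 0.0393). The small membrane proteins Atp5md, known as DAPIT, and Atp5mpl rose by 1.07 (SE 0.22, adjusted p = 0.0313) and 0.62 (SE 0.11, adjusted p = 0.0211). Fmc1, known as an assembly factor of the F1 head in yeast, rose by 0.72 (SE 0.14, adjusted p = 0.0258). The e subunit, encoded by Atp5k, stands next to the g subunit where the enzyme pairs into dimers. The other genes of the c ring lay near 0, as Atp5g1 did, with -0.08 for Atp5g2 and 0.12 for Atp5g3.

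In mutant muscles all 14 of these genes had a lower mean, with a median of -0.15. None passed, and 3 had an unadjusted p under 0.05. Every mutant muscle lay below every control muscle for 6 of the 14, against 5.22% of all genes, but for 4 on the deposited values and 2 after median centring. Under those scalings 13 and 12 of the 14 means were lower. The 4 with the smallest unadjusted p were Atp5pb (-0.17), the b subunit of the peripheral stalk, Atp5g3 (-0.19), Atp5mpl (-0.19) and Atp5j (-0.15), the F6 subunit of that stalk, each with an adjusted p of 0.994 (limma). The effect of the mutation differed between the tissues for 5 of the 14, all higher in liver, against 1.16% of all genes, with values of 1.41 for Atp5md, 0.83 for Fmc1, 0.81 for Atp5mpl, 0.68 for Atp5j2 and 0.67 for Atp5l and adjusted p from 0.0165 to 0.0408 (limma). Over the whole array 168 genes passed for this difference, but 1 with the RNA quality ratio in the fit and 10 without mutant livers 1 and 3.

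**Figure D4:**
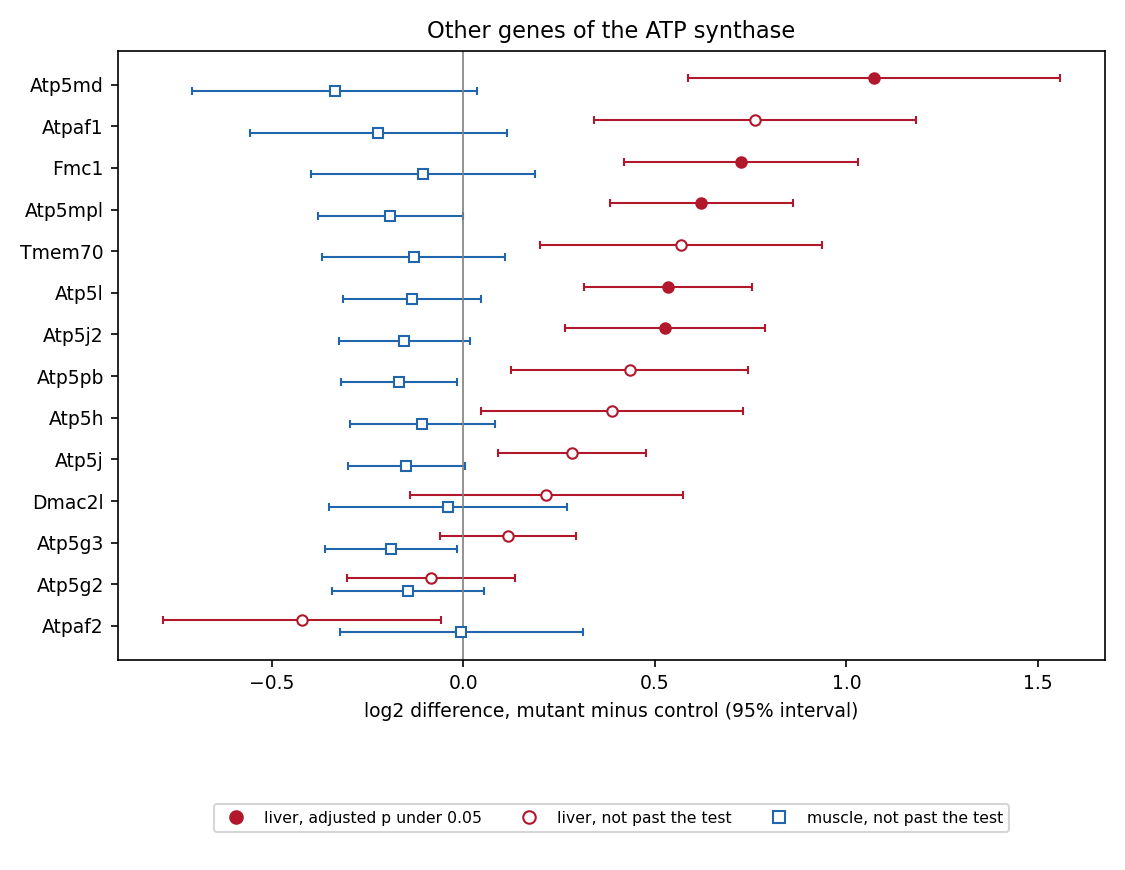
Log2 difference of mutant minus control with its 95% interval for the 14 other genes of the ATP synthase, liver as circles and muscle as squares, sorted by the liver value. The 5 filled circles are the genes past the test in liver, from Atp5j2 (0.53) to Atp5md (1.07), and all 14 squares lie left of 0.

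The carriers that bring ADP, ATP and phosphate to the enzyme did not pass in either tissue. Slc25a3, the phosphate carrier, differed by -0.16 (SE 0.10) in liver and -0.16 (SE 0.06) in muscle. It read 5279, 5502 and 5228 in mutant muscles and 6007, 5919 and 5937 in control muscles. All mutant muscles thus lay below all controls, as for 5.22% of all genes. Slc25a5, an ADP and ATP carrier found in many tissues, read 4491, 4789 and 4573 in mutant livers and 5094, 5344 and 6664 in control livers. Its adjusted p was 0.179 by limma, and all mutant livers lay below all controls, as for 11% of all genes. Its probe sets ran from -0.29 to 0.67 in liver, with some apart in each direction. The highest, 1438922_x_at, read 591, 499 and 635 in mutant livers and 307, 314 and 462 in control livers. Slc25a4, the ADP and ATP carrier of muscle and heart, read 8073, 8394 and 8217 in mutant muscles and 8801, 8945 and 8696 in control muscles. Its adjusted p was 0.994 by limma, and all mutant muscles lay below all controls, as for 5.22% of all genes. Another of its probe sets, 1424562_a_at, overlapped, with 8139, 7935 and 7728 in mutant muscles and 8523, 7935 and 8394 in control muscles. The rest lay lower in mutant muscles without overlap.

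Sums of some markers of other cells moved with the liver groups, and others overlapped. The 4 liver endothelial genes summed to 1391 to 1493 in mutant livers and 1183 to 1979 in control livers. The sums were 1248 to 1644 and 1290 to 1614 for stellate cells and fibroblasts, and 1455 to 1818 and 1090 to 2431 for blood. The 8 genes of Kupffer cells and macrophages summed to 3363 to 4336 in mutant livers and 2094 to 2928 in control livers. Of these, 3 of the 8 rose (Lyz2 by 1.28, Tyrobp by 1.34 and Vsig4 by 0.80 on the log2 scale), against 2.33% of all genes. Csf1r, at -0.07, was the only 1 of the 8 with a lower mean. The 4 adipocyte genes on the array summed to 190 to 256 in mutant livers and 139 to 149 in control livers. Fabp4 carried most of that shift, at 146 to 213 in mutants and 87.1 to 107 in controls, while the defining marker Adipoq was at 3.7 to 22.4 in mutants and 2.1 to 22.3 in controls, Lep overlapped and Cidec read 3.0 to 19.4 in mutants and 17.3 to 28.4 in controls. The 6 hepatocyte genes summed to 61493 to 63826 in mutants and 64126 to 67036 in controls. The part of these cells in the values of Atp5e and Atpif1 was not tested.

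Levels in control liver were set against those in control muscle after all 12 arrays had been brought to the same distribution. On that scale 8 of the 9 genes were lower in liver, all but Atpif1, against 28.4% of the 14673 genes tested, while 26.3% were higher and 54.7% passed in all. For all 9 every control liver lay below every control muscle, as for 31.8% of all genes, against 29.5% apart the other way. Atp5o had the largest difference, with 1468, 2240 and 1915 in control livers and 4514, 5038 and 4588 in control muscles, a log2 difference of -1.34 (SE 0.14, adjusted p = 9.7e-06 by limma). Atp5e read 1417, 1469 and 1186 in control livers and 3348, 3413 and 3285 in control muscles, a difference of -1.30 (SE 0.11). Atpif1 read 129, 165 and 177 in control livers and 186, 185 and 218 in control muscles, a difference of -0.30 (SE 0.16, adjusted p = 0.133). On the same scale Atp5e averaged 2535 ± 126 in mutant livers, and 3009 ± 102 in mutant muscles (SD, n = 3 each), whereas Atpif1 averaged 305 ± 42.9 in mutant livers and 190 ± 45.7 in mutant muscles.

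The tissue comparison depended on the scaling. With the values as deposited only 3 of the 9 genes passed as lower, and Atp5a1 (0.30), Atp5b (0.31), Atp5d (0.19) and Atpif1 (0.27) lay higher in liver. Normalising each tissue on its own does not put the tissues on a common scale. Under it Atp5a1 (0.40, adjusted p = 0.00911) and Atp5b (0.44, adjusted p = 0.00431) passed as higher in liver by limma. Atp5e and Atp5o passed as lower in liver under each of the 15 alternatives run. Over all genes 3864 were higher and 4167 lower in liver as reported, against 6324 and 2155 with the values as deposited.

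**Figure D5:**
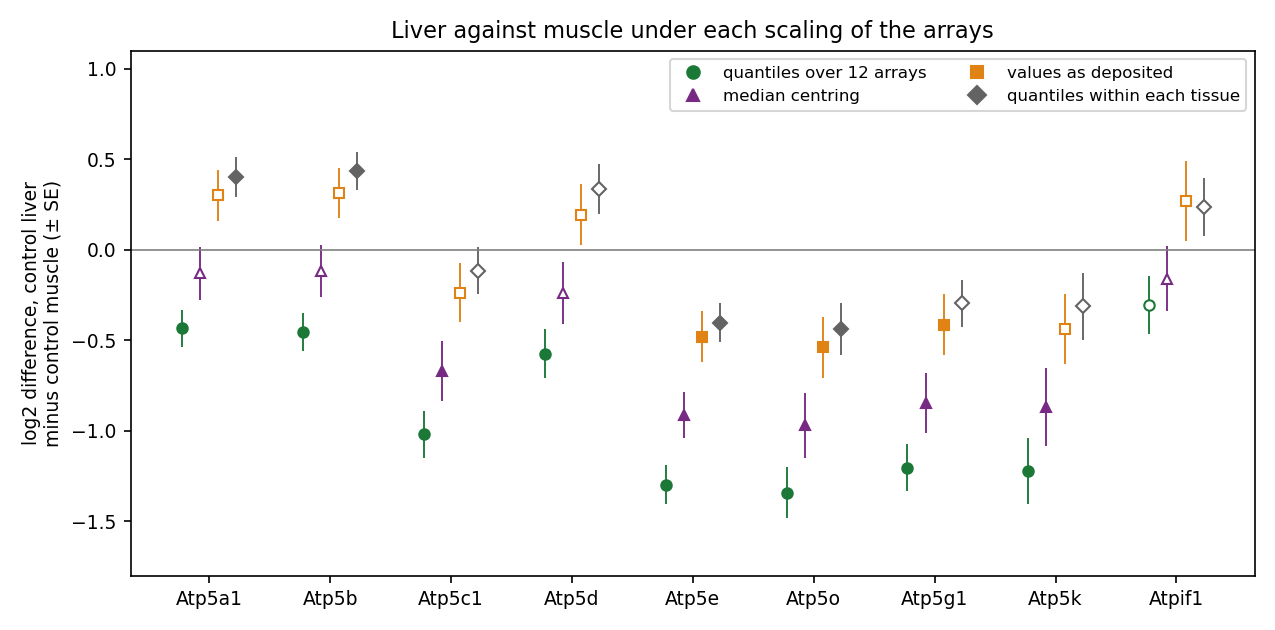
Log2 difference of control liver minus control muscle, with its SE, for the 9 genes under 4 ways of scaling the arrays; filled symbols have an adjusted p under 0.05. Atp5e and Atp5o lie below 0 and are filled under all 4, while Atp5a1, Atp5b, Atp5d and Atpif1 change sign. Quantiles within each tissue do not put the tissues on a common scale.

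The 9 genes were compared with their own median profile, each centred on its mean in a tissue, by the root mean square difference over the 12 arrays on the log2 scale. Atp5c1 lay closest with 0.055 and Atpif1 furthest with 0.344, next to Atp5e with 0.328 and Atp5a1 with 0.295. Among 11819 other genes tested in both tissues, whose median distance was 0.286, the 5 closest to the profile were Nap1l4 (0.066), Ndufa1 (0.084), Mrpl34 (0.086), Mrpl51 (0.087) and Puf60 (0.089). Ndufa1 encodes a subunit of complex I, and Mrpl34 and Mrpl51 encode proteins of the mitochondrial ribosome. This likeness is a description of these 12 arrays, which all the genes share.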

How the data were processed

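The authors deposited linear probe set intensity for 12 Affymetrix arrays, per the file headers and labels. No label states the algorithm behind the values or their scaling, and per the labels' design text d-Chip served for clustering. Scanner files were not used here, and the number of arrays limits the precision. Array medians of the deposited intensities were 27.2 to 40.1 for liver and 20.1 to 22.3 for muscle.

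From these values log2(intensity + 16) was taken, which understates changes of dim genes, and normalised by quantiles within each tissue, or over 12 arrays to compare tissues. Normalised intensities are these values turned back to the linear scale. Of 45101 probe sets 64 controls were left out. Of the rest, 34945 had a single symbol, 932 several and 9160 none. By Entrez identifier 34741 probe sets were matched to RefSeq genes (GRCm38.p6) and took the symbol given there, changed or not. The probe set with the highest mean stood for its gene. Genes whose mean exceeded the 40th percentile over probe sets were tested with limma 3.58.1 in R 4.3.3 (trended moderated variance, Benjamini-Hochberg adjustment, threshold 0.05), with 4 residual degrees of freedom per tissue and 8 for the difference between tissues. Figures used matplotlib 3.10.9 in Python 3.11.15.

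The 9 genes and the lists were chosen with earlier results of these data known. All 9 are named, with the other ATP synthase genes past the test (otherwise up to 4 with the smallest p), the 3 carriers and the 5 genes most like the panel. Alternatives were offsets of 1 and 64, other filters and scalings, the mean of all probe sets, every probe set on its own, no variance trend, all 12 arrays in 1 fit, a replicate block, the RNA quality ratio in the fit, and leaving out arrays.

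Data were simulated with genes changed 1.5-fold, 2-fold or 4-fold. Noise was drawn for each gene by itself, with no difference in RNA quality between groups, so the false calls do not cover such a difference. Calls are counted over all of these fold changes together. On these data 42.2% of genes changed 2-fold were recovered in liver over 13317 genes, with 1 false call among 76. In muscle it was 43.4% over 13111 genes, with 2 false among 90. For the difference between tissues it was 38.1% over 11658 genes, with 3 false among 76, and between control tissues 36.7% over 14094 genes, with 4 false among 86. Of genes changed 1.5-fold, 8.96% were recovered in liver and 16.9% in muscle.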

Additional observations from a re-analysis of the deposited data

Results flagged for a closer look

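The effect of the mutation on Atp5e, the epsilon subunit of the ATP synthase, differed between the tissues as reported, but not under every alternative. The liver difference exceeded the muscle difference by 1.09 on the log2 scale by the interaction term of limma over 12 arrays (SE 0.14, adjusted p = 0.00412). Mutant livers lay above control livers in 3 of 3 arrays, and mutant muscles below control muscles in 3 of 3. Over the 24 alternatives the difference ran from 0.92 to 1.29, with adjusted p from 0.00184 to 0.0812 by limma, and it did not pass in 3 of them. The highest adjusted p came with the 3′ to 5′ ratio in the fit, and RNA quality moved with the groups in liver. Atp5e is read by a single probe set, 1416567_s_at, which can match more than 1 transcript.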

How the results depend on the processing

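In liver 447 genes passed as reported, 310 higher and 137 lower, among them Atp5e and Atpif1. The count was 222 with no filter, 297 with the values as deposited (279 higher and 18 lower), 171 with the mean of all probe sets, 997 with all 12 arrays in 1 fit and 2 when the 3′ to 5′ ratio was a covariate. It was 0 with no variance trend and 0 without liver mutants 1 and 3 together, by limma, with 2332 and 1091 genes at an unadjusted p under 0.05. Leaving out both leaves 1 mutant liver, which is assumed to vary as the arrays of the other groups in the fit do. Median centring gave 300 higher and 33 lower. With 1 array left out it ran from 0 (without mutant liver 1 or control liver 2) to 738. Of the 9 genes, 1 (Atp5e) passed with the mean of all probe sets, 0 with no variance trend, the covariate or without both mutants, and 0 to 2 with 1 array left out. In muscle 2 genes passed as reported, against 1 with the mean of all probe sets, 1 with all 12 arrays, 0 with no variance trend (589 unadjusted) and 1 to 2 with 1 array left out, and 0 of the 9 genes passed in each of the 18 alternatives.

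For the difference between tissues 168 genes passed, against 58 with no filter, 57 with the values as deposited, 58 with median centring, 85 with the mean of all probe sets, 0 with no variance trend (1717 unadjusted), 1 with the covariate, 10 without both mutants and 12 to 391 with 1 array left out, the lowest without mutant liver 1. Of the 9 genes 1 passed, against 2 with an offset of 64, 2 with a filter at the 60th percentile, 0 with no variance trend, the covariate or without both mutants, and 1 to 2 with 1 array left out. Between control liver and muscle 8031 genes passed, against 14898 probe sets when each was tested on its own, and of the 9 genes 8 passed, against 3 with the values as deposited, 5 with median centring and 4 with each tissue normalised on its own.

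Pairing by sample number was described by correlating the deviations of arrays from their group means, over the genes tested, and not the levels. Between same-numbered mutant and control samples these deviations correlated at -0.11 to -0.01 in liver. There samples of other numbers correlated at -0.08 to 0.11. In muscle the values were 0.03 to 0.20 for the same number and -0.16 to 0.09 for other numbers. Whether the numbers pair the muscle samples was not tested. With a replicate block 11 genes and 0 of the 9 passed in liver, and 26 genes passed for the difference. In muscle 2 genes passed with the block as without it, and 750 against 560 had an unadjusted p under 0.05 by limma.

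These values changed sign, none of them past the test except Atp5a1 and Atp5b with each tissue normalised on its own. In liver Atp5d was 0.054 as deposited and 0.049 centred, Atp5g1 was 0.17 as deposited, 0.16 centred, 0.13 with the mean of all probe sets and -0.22 to 0.020 with 1 array left out, and Atp5c1 was -0.061 with the covariate, -0.032 without both mutants and -0.068 to 0.20 with 1 array left out. In muscle Atp5c1 was 0.29 with the mean of all probe sets, which adds a probe set reading at most 19.2 there, and Atpif1 was -0.23 to 0.048 with 1 array left out. For the difference Atp5b was 0.027 as deposited and 0.0095 centred, Atp5a1 was 0.072 and Atp5c1 -0.24 with the mean of all probe sets, and Atp5d was -0.13 with the covariate, -0.090 without both mutants and -0.070 to 0.20 with 1 array left out. Between the control tissues Atp5a1, Atp5b, Atp5d and Atpif1 were 0.30, 0.31, 0.19 and 0.27 as deposited and 0.40, 0.44, 0.34 and 0.24 with each tissue normalised on its own. Where no cause is named, the cause was not tested.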
